A study of Homo sapiens with 4 samples.

Results

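Ribosome footprints that cross splice junctions were examined for 172 human long noncoding genes, those named as intergenic transcripts (LINC symbols) or for a gene on the other strand (symbols ending in -AS1 or -AS2 for antisense transcripts, in -DT for divergent transcripts and in -IT1 for intronic ones). A gene was included when its symbol fitted this naming and when the K562 and HepG2 tables together held 20 or more uniquely mapped reads at junctions that belong to it alone. EPB41L4A-AS1 was left out by the same rule. Of 4415 genes with such a symbol and an annotated junction, 924 had 1 or more reads and 3491 had 0, and 172 reached the minimum. They are 172 of the 10956 genes of any kind with 20 or more reads, and of 35189 gene identifiers with a junction in the tables. LINC symbols account for 65 of them, -AS1 for 81, -DT for 24 and -AS2 for 2, while no -IT1 gene reached the minimum.

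The study profiled ribosomes in 2 established cell lines, with 2 samples of each and no treatment named. K562 is an erythroid-like line from a patient with chronic myelogenous leukemia, and HepG2 is a line with hepatocyte features derived from a liver tumor. Cells were lysed in the presence of cycloheximide, which halts elongating ribosomes, RNA outside ribosomes was digested with RNase I, and footprint-sized fragments were sequenced after removal of ribosomal RNA. Each line has 1 deposited table that pools its samples, so every value below is 1 number per line, no spread between cultures can be given, and all intervals, exact at 95%, reflect counting error alone.

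Long noncoding RNAs are spliced and capped like messenger RNAs but have no annotated protein, and many are present in one cell type and scarce in others. Antisense and divergent transcripts start near or inside a gene of the opposite strand, and divergent ones often share its promoter. Many cytoplasmic noncoding RNAs are bound by ribosomes, which may translate a short open reading frame, and a few such frames make stable small proteins. A footprint at a junction shows a spliced RNA in a fragment of ribosome size. Whether a fragment came from an elongating ribosome was not tested here, and more RNA per cell cannot be told apart from more ribosomes per RNA.

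The K562 table held 7487508 uniquely mapped junction reads, against 9927809 in HepG2, and scaling (TMM) set their effective depths to 8336980 and 8298281. Markers fitted the labels: GATA1, KLF1, TAL1 and RHAG had 130 to 7365 reads in K562 and 0 in HepG2, and ALB, AFP, APOB, TF, SERPINA1 and HNF4A had 1545 to 371360 reads in HepG2 and 0 to 162 in K562.

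The 172 noncoding genes had 12822 reads in K562, 0.178% (0.175 to 0.181) of gene reads there, and 4559 in HepG2, 0.0475% (0.0461 to 0.0489). These shares are of unscaled totals, 7208966 in K562 and 9596744 in HepG2. The HepG2 total includes 349063 reads of ALB and 371360 of AFP, so the shares differ more than scaled counts do. The counts of the 172 genes were low. The reads per gene over both tables ran from 20 to 1114 with a median of 53.0, and 82 genes had fewer than 50 reads while 47 had 100 or more. The 10 genes with the most reads over both tables held 35.9% of the K562 reads and 19.9% of the HepG2 reads of the group.

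The ratio of the scaled counts of a gene had to exceed 2-fold over its whole interval for the gene to count as higher in one line. By this rule 70 of the 172 (40.7%) were higher in K562, 23 (13.4%) were higher in HepG2, and the other 79 passed in neither direction. Over all 10956 genes tested, 16.8% were higher in K562, 21.9% were higher in HepG2 and 38.7% passed in either direction. The median log2 ratio of K562 to HepG2 was 1.41 over the noncoding genes and -0.01 over all genes. These counts describe genes chosen by their summed reads. A gene expressed in a single line reaches the minimum through that line. With all 924 named genes that had any read, the median was 0.37. That median cannot be set against 1.41, because a 0 counts as 3 and can then exceed the reads of the other line. Among 7692 other genes in the same range of summed reads, 17.6% were higher in K562 and 22.6% in HepG2. These genes share the range only and were not matched by reads within it. Over all genes, 8552 of 10956 had 100 or more reads, against 47 of the 172. The 101 long noncoding genes of other names with 20 or more reads had a median of 2.06, with 55 higher in K562, 14 in HepG2 and 32 in neither.

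**Figure D1:**
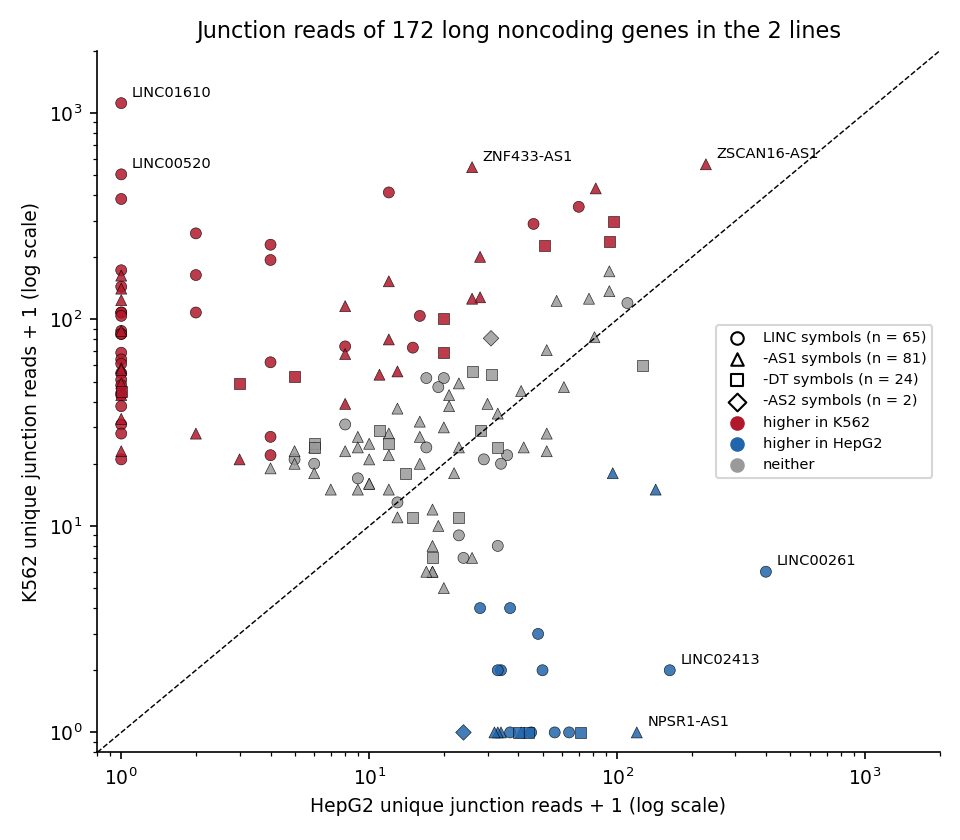
Unique junction reads plus 1 of each of the 172 genes in HepG2 (horizontal, log scale) and K562 (vertical, log scale), with the marker shape giving the class of name and the color the line in which the gene was counted as higher. The dashed line marks equal reads; 34 genes stand at the left edge with 0 reads in HepG2 and 13 at the bottom with 0 in K562.

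Reads in a single line were frequent in this group. In 47 of the 172 genes (27.3%) 1 table held 0 reads, which was HepG2 for 34 genes and K562 for 13. Among other genes in the same range of reads the share was 12.6%, but those were not matched by reads within it. A 0 is likelier in a gene with few reads, and 82 of the 172 had fewer than 50. The LINC genes had a 0 in 27 of 65 (41.5%), against 15 of 81 (18.5%) of the -AS1 genes and 4 of 24 (16.7%) of the -DT genes. A count of 0 does not exclude a few reads in that table, and 3 is the floor used for log2 ratios.

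Most genes were read at few junctions. The group has 1917 annotated junctions, of which 778 had reads, and the most-read junction of a gene held a median of 70.1% of its reads. In 123 genes 50% or more of the reads fell on 1 junction, and in 40 genes 90% or more. The sequences below are the 30 bases of spliced RNA at the most-read junction of 8 genes, 15 bases from each side of the splice, in the direction of transcription. The first 5 are among the 12 genes with the most reads, and the last 3 stand at the HepG2 end of the ranking. Capitals mark any ATG. They are from the GENCODE 29 transcripts, build GRCh38, and the intervals are the introns removed.
LINC01610, chr6:70395044-70395229, plus strand: ggcctcatctataagcttttccactgtcct
ZSCAN16-AS1, chr6:28123212-28136744, minus strand: gaaaaggtctggccggagATGggtctcact
ZNF433-AS1, chr19:11987824-12001773, plus strand: ggaagctgaaaaATGgaaataaATGgaaag
TTC28-AS1, chr22:27919546-27922017, plus strand: agcctacgctttccggataaaaATGgcaga
LINC00261, chr20:22565117-22566682, minus strand: ttcatcaattcacaggaaATGgcatcaaga
LINC02413, chr12:93006230-93019410, plus strand: ggcttcctggtggagaacgtgtgtgATGga
NPSR1-AS1, chr7:34417673-34569711, minus strand: catcctctgccATGtagcaaactgctATGc
C2orf74-DT, chr2:61143946-61144772, minus strand: gcattacatcagcagactgcattggagaga

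LINC genes passed the rule in 75.4% of cases, against 39.5% of the -AS1 genes and 45.8% of the -DT genes. Of 65, 37 were higher in K562, 12 in HepG2 and 16 in neither, with a median log2 ratio of 2.77. LINC01610 (ENSG00000237643, chromosome 6, 70394887 to 70399417) had the most reads of the whole group, all 1114 of them in K562 against 0 in HepG2, which is at least 300-fold higher in K562 by the bound of its interval. Its first junction, shown above without an ATG, held 986 of those reads. LINC00520 (chromosome 14) had 503 and 0 reads and LINC01029 (chromosome 18) 382 and 0, at least 135-fold and 103-fold higher. LINC00958, a transcript studied in bladder and other tumors, had 411 K562 reads and 11 HepG2 reads, a ratio of 37.2 (20.6 to 75.1).

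Other LINC genes at the K562 end had single-digit counts or none in HepG2. LINC03077 (chromosome X) had 260 K562 reads and 1 HepG2 read, and LINC02864 (chromosome 18) had 163 and 1. LINC02505 had 172 and 0 reads and LINC02772 had 143 and 0, at least 45.9-fold and 38.1-fold higher in K562. LINC02772 has a single annotated junction, so its value rests on that one alone. LINC00467 was read in both lines, with 350 and 69 reads and a ratio of 5.05 (3.89 to 6.64), as was LINC03011, with 289 and 45 and a ratio of 6.39 (4.66 to 8.96).

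Fewer LINC genes were higher in HepG2, and they had fewer reads. LINC00261 (ENSG00000259974, chromosome 20, 22547671 to 22578642), a noncoding gene of endoderm near the FOXA2 gene, had 397 HepG2 reads and 5 K562 reads, and its HepG2 to K562 ratio was 79.8 (33.9 to 247). LINC02413 (chromosome 12) had 162 and 1, all at 1 junction, a ratio of 163 (28.8 to 6468). LINC03037 had 63 and 0 reads, LINC01273 had 55 and 0, and LINC01060 had 44 and 0, at least 16.7-fold, 14.5-fold and 11.5-fold higher in HepG2.

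**Figure D2:**
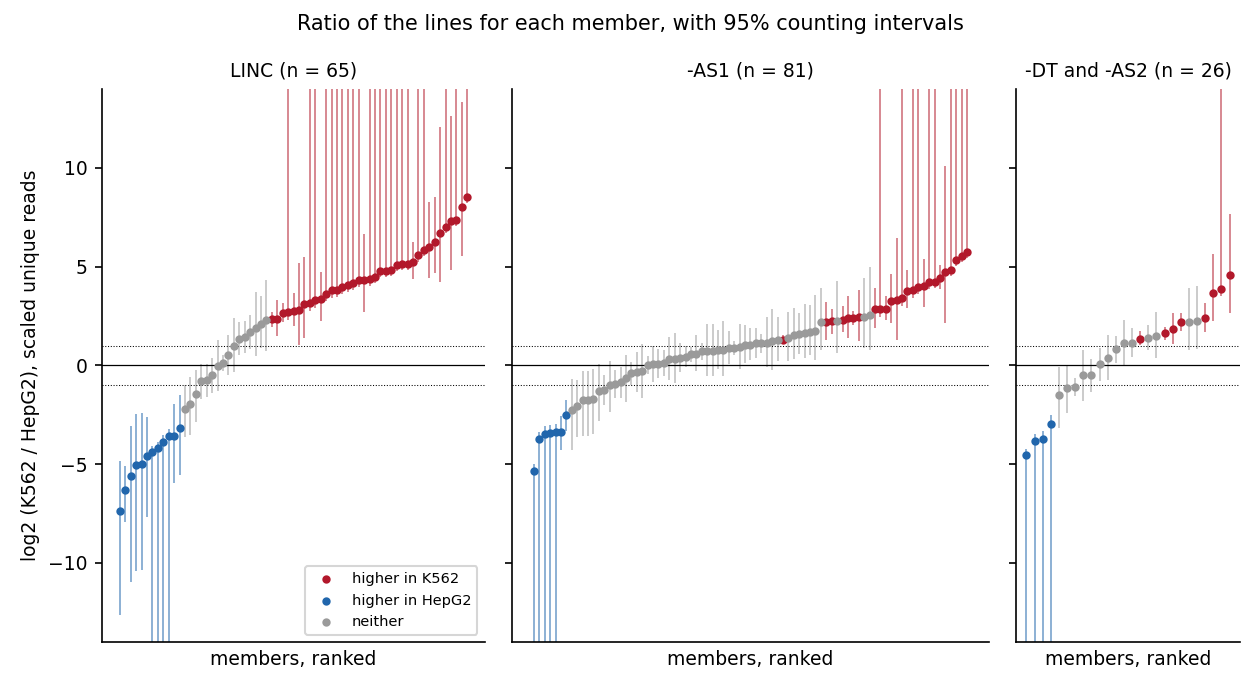
The log2 ratio of K562 to HepG2 of each gene (points) with its exact 95% counting interval (bars), ranked within LINC, -AS1 and the joined -DT and -AS2 symbols, with dotted lines at 2-fold. A bar that runs off the axis has no finite bound because 1 line had 0 reads, and its point is set against a floor of 3 reads; grey points, which passed neither limit, make up 16 of 65 LINC genes and 49 of 81 -AS1 genes.

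Antisense genes had a smaller median log2 ratio than the LINC genes, at 1.06. Of 81 -AS1 genes, 25 were higher in K562, 7 in HepG2 and 49 in neither. The 39.5% that passed in either direction is near the 38.7% of all genes, of which 16.8% were higher in K562 and 21.9% in HepG2. ZSCAN16-AS1 (chromosome 6), opposite a zinc finger gene, had 563 K562 reads and 227 HepG2 reads, a ratio of 2.47 (2.11 to 2.89), and was the gene of the group best read in both lines. Nearly all of its reads (99.6%) crossed the junction shown above. ZNF433-AS1 (chromosome 19) had 545 and 25 reads, a ratio of 21.7 (14.5 to 33.8).

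The value of TTC28-AS1 depended on a single junction. The gene had 430 K562 reads and 81 HepG2 reads, a ratio of 5.28 (4.16 to 6.79), and 413 and 56 of them lay at its most-read junction. Without that junction the log2 ratio turned from 2.40 to -0.52 and passed neither limit.

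Several -AS1 genes had reads in 1 line only. B3GALT1-AS1 had 162 K562 reads and 0 HepG2 reads, at least 43.2-fold higher. GP6-AS1, opposite the gene of the platelet collagen receptor, had 140 and 0, at least 37.3-fold higher. In the other direction NPSR1-AS1, opposite the neuropeptide S receptor gene, had 0 K562 reads and 119 HepG2 reads, at least 31.9-fold higher in HepG2. HNF4A-AS1, opposite the gene of a nuclear receptor that maintains hepatocytes, had 0 and 32 reads, at least 8.22-fold higher in HepG2.

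The 24 divergent transcripts had 8 genes higher in K562, 3 in HepG2 and 13 in neither, with a median log2 ratio of 1.12. RAB30-DT had 297 and 96 reads, a ratio of 3.08 (2.44 to 3.92), and SP2-DT had 238 and 92, a ratio of 2.57 (2.02 to 3.31). Both calls ended without the most-read junction, where the log2 ratio fell from 1.62 to 0.95 in RAB30-DT and from 1.36 to 0.09 in SP2-DT. That of SP2-DT also ended with 99% intervals, with all mapped reads and with a minimum of 1 read. C2orf74-DT had 0 K562 reads and 70 HepG2 reads, and PRR15-DT had 0 and 43, at least 18.6-fold and 11.2-fold higher in HepG2. Of the 2 -AS2 genes, BCAN-AS2 had 80 and 30 reads and passed neither limit, and HOXA-AS2, from the HOXA cluster of developmental regulators, had 0 and 23 and was higher in HepG2.

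An antisense or divergent transcript can be compared with the gene it is named for, which asks whether both strands of a locus differed between the lines together. For 106 of the 107 genes with such a symbol the partner was found on the opposite strand, overlapping in 86 and apart in 20. In 73 pairs both genes had 20 or more reads. The partner had more reads than the noncoding gene in 64 of these pairs. Both genes passed the rule in the same direction in 7 pairs and in opposite directions in 2, neither passed in 33, the noncoding gene alone in 17 and the partner alone in 14. Of those 17, 15 were higher in K562. Across the 73 pairs, Spearman's correlation between the log2 ratios was 0.18, and it was 0.27 over the 37 pairs whose starts lie within 1000 bases. These are descriptions across genes measured in the same 2 tables, and genes are not independent replicates.

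Among the 7 pairs that passed in the same direction was that of HNF4A, which is 1 of the HepG2 markers above. EGFR-AS1 had 0 K562 reads and 33 HepG2 reads, and EGFR, a growth factor receptor, had 0 and 561. HNF4A had 0 and 1545 reads beside the 0 and 32 of its antisense gene. SRP54-AS1 had 14 and 142 reads, and SRP54, of the signal recognition particle, had 1624 and 6175. On the K562 side SOCS2-AS1 had 123 and 0 reads and SOCS2, a suppressor of cytokine signalling, 257 and 1. PRKCQ-AS1 had 79 and 11, and PRKCQ, a protein kinase C of blood cells, 253 and 7. These 5 pairs are named from the 7 after their values were seen.

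**Figure D3:**
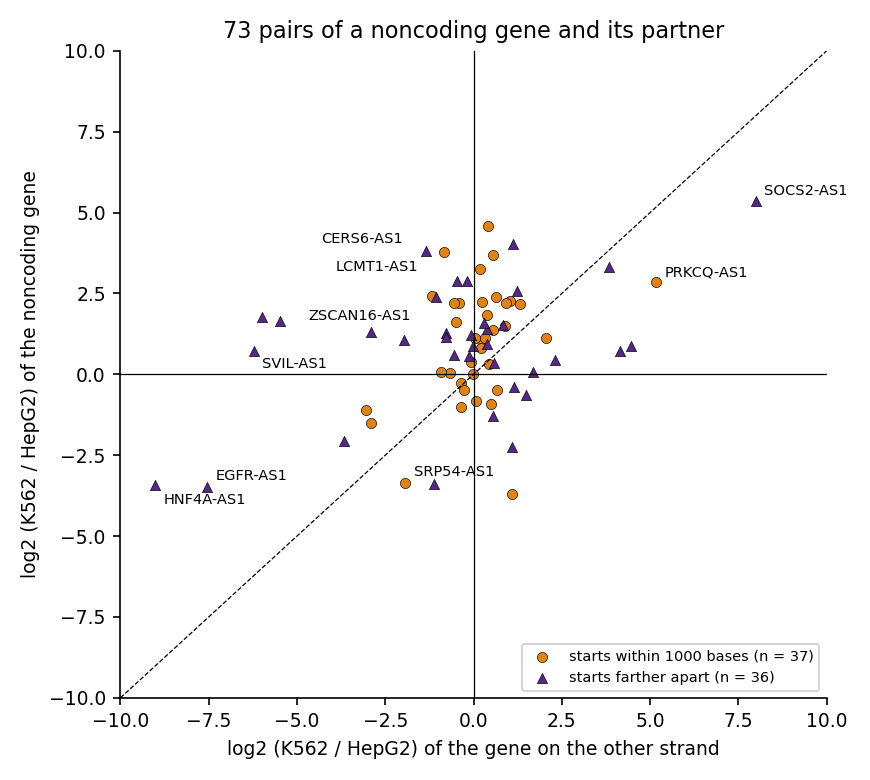
The log2 ratio of K562 to HepG2 of 73 antisense or divergent genes (vertical) against that of the gene on the other strand (horizontal), with circles for pairs whose starts lie within 1000 bases and triangles for the rest. The dashed line marks equal ratios; 51 of 73 pairs lie above it, and a gene with 0 reads in 1 line is set against a floor of 3 reads.

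In other pairs the strands differed. Among the 34 pairs with 50 or more reads in each gene, the 6 largest differences were those of ZSCAN16-AS1, SVIL-AS1, LCMT1-AS1, MRPS30-DT, TTC28-AS1 and ZNF232-AS1. ZSCAN16-AS1 had 563 and 227 reads while ZSCAN16 had 7 and 52, so that the noncoding gene was higher in K562 and the coding gene in HepG2. CERS6-AS1, with 42 and 0 reads, and the ceramide synthase gene CERS6, with 413 and 1053, were the other pair in opposite directions. SVIL-AS1 had 125 K562 reads and 76 HepG2 reads, a ratio of 1.64 (1.22 to 2.21), where SVIL, which encodes the actin-binding protein supervillin, had 0 and 223. LCMT1-AS1 had 152 and 11 reads beside 359 and 644 for LCMT1, a methyltransferase of a protein phosphatase. MRPS30-DT had 48 and 2 beside 666 and 501 for MRPS30, a mitochondrial ribosomal protein. For TTC28-AS1 and ZNF232-AS1, with 200 and 27 reads, the partners had 38 and 79 and 60 and 82. In pairs with fewer reads the difference in log2 ratio reached 7.74, for ZFHX3-AS1 (17 and 5 reads) and ZFHX3 (1 and 63).

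At the other extreme, NNT-AS1 had 81 and 80 reads and NNT, the mitochondrial transhydrogenase, had 914 and 921. SCOC-AS1 had 136 and 92 reads beside 1169 and 1278 for SCOC. RNASEH1-DT had 23 and 32 beside 221 and 263, RBM33-DT had 53 and 30 beside 317 and 272, BOLA3-DT had 28 and 27 beside 133 and 212, and UBL7-DT had 55 and 25 beside 935 and 747. In these pairs, chosen for their small differences among the 34 with 50 or more reads in each gene, neither gene passed 2-fold. Under other rules 2 of the noncoding genes were counted as higher in K562, RBM33-DT with its shared junction included (log2 ratio 1.38, against 0.81) and SCOC-AS1 without its most-read junction (1.63, against 0.56).

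The LINC genes have no partner by name, so each was set beside the protein-coding gene with the nearest start, at a median distance of 126013 bases. That neighbor had 20 or more reads for 30 of the 65. Both passed in the same direction in 5 cases and in opposite directions in 5, and the LINC gene alone passed in 15. Another 24 LINC genes passed in 1 direction beside a neighbor with fewer than 20 reads in all or no junction. LINC01610 had 1114 and 0 reads beside 119 and 184 for FAM135A, and LINC02413 had 1 and 162 beside 653 and 1408 for EEA1, an endosome protein. LINC03037 had 0 and 63 beside 1301 and 6583 for ROCK2, and both were higher in HepG2.

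Translation usually begins at an ATG codon, and so the windows of 30 bases around the junctions were searched for ATG. An ATG lay in the window of 832 of 1913 junctions with a transcript match (43.5%), close to the 41.8% found over the 342594 junctions of single genes, of any kind, with a transcript match. These junctions held 65.7% (64.8 to 66.5) of the reads of the group in K562 and 64.0% (62.6 to 65.4) in HepG2. The mean count over both tables was 13.6 reads at junctions with an ATG in the window and 5.58 at those without. Among first junctions of a transcript the means were 20.8 and 8.82, and among later ones 8.49 and 3.08. In 140 genes with junctions of both kinds, the mean was higher at junctions with an ATG in 101 and lower in 38. Without the 10 most-read genes the shares of reads were 66.7% in K562 and 58.9% in HepG2. The search was made after the counts were seen and the junctions of a gene share its level, so these are descriptions without a test. The share of reads at such junctions over all genes is not given here. The larger share of reads can therefore not be called particular to this group.

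Other triplets place this value. Of all 64 triplets, searched as RNA of the transcribed strand, ATG ranked number 2 by its share of reads over its share of junctions, at 1.50. CCG ranked first at 1.53, from 12.4% of the junctions, and GCC ranked next after ATG at 1.35. The 101 other long noncoding genes had an ATG in 48.0% of junction windows, which held 71.0% of their K562 reads and 59.0% of their HepG2 reads. Of the most-read junctions of the 172 genes, 109 (63.4%) had an ATG in the window, among them 6 of the 8 shown above.

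**Figure D4:**
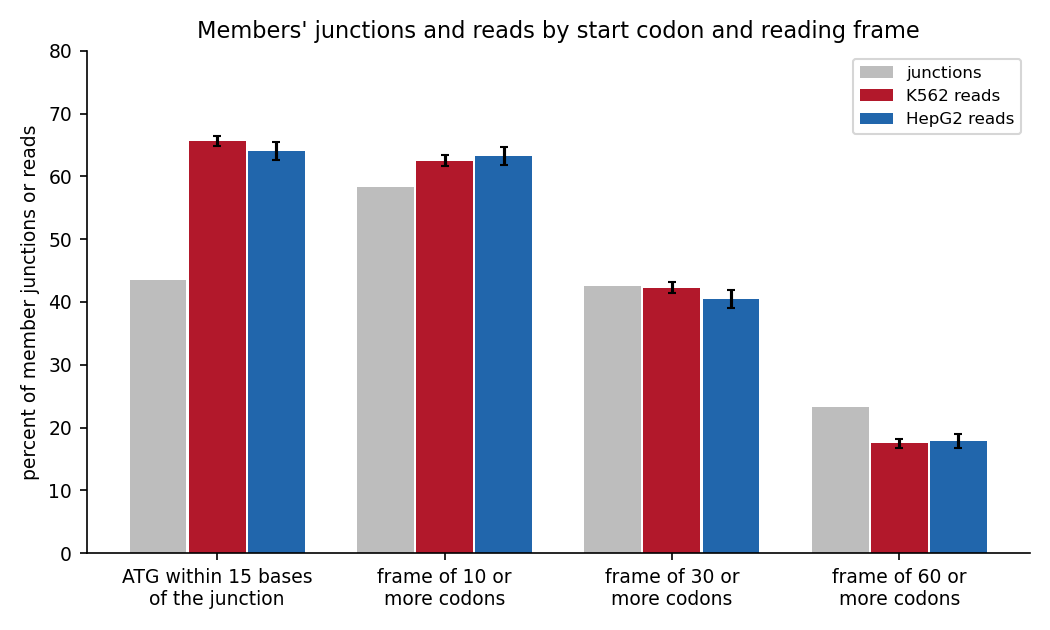
Percent of the group's junctions (grey) and of its reads in K562 (red) and HepG2 (blue) that have an ATG within 15 bases of the junction, or that are crossed by an ATG reading frame of at least 10, 30 or 60 codons. Bars on the reads are exact 95% counting intervals; reads exceed junctions for the ATG window and lie below junctions for frames of 60 or more codons.

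Long reading frames did not hold a larger share of reads. An ATG frame of 30 or more codons crossed 42.5% of the junctions, with 42.3% (41.4 to 43.1) of reads in K562 and 40.5% (39.0 to 41.9) in HepG2. Frames of 60 or more codons crossed 23.3% of junctions, with 17.5% and 17.9% of reads. Frames of 10 or more codons crossed 58.3%, with 62.5% and 63.2%. In 133 genes with junctions inside and outside frames of 30 or more codons, the mean count was higher inside in 72 and lower in 60. First junctions made up 42.8% of junctions and held 68.0% of reads in K562 and 58.3% in HepG2.

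The most-read junction of LINC00467, a gene for which a small protein has been described, was crossed by a frame of 124 codons and held 141 reads in K562 and 17 in HepG2. A later junction of the same gene, with 104 and 34 reads, was crossed by a frame of 94 codons. Each length is the longest over the annotated transcripts, and whether either frame is that of the described protein was not tested. Among genes with 50 or more reads, the longest frame at a main junction had 152 codons, in PCED1B-AS1 (23 and 0 reads there). MRPL20-AS1 followed with 137 codons (28 and 20 reads) and PAX8-AS1 with 132 (35 and 0). UBL7-DT had a frame of 110 codons (53 and 24 reads), SOCS2-AS1 one of 107 (102 and 0) and KLRK1-AS1 one of 100 (36 and 7). LINC01608, with 96 codons (34 and 0 reads), completes the 8 longest. No ATG frame of any length crossed the main junctions of ZSCAN16-AS1, TTC28-AS1, RAB30-DT and LINC03077. In the windows of ZSCAN16-AS1 and TTC28-AS1 shown above, the ATG stands downstream of the splice. For LINC00261 the longest frame had 26 codons and for ZNF433-AS1 16, and for LINC02476 and SP2-DT it had 24 and 3.

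In a small set the ATG was followed at once by a stop codon. Such a pair of codons stood in 53 windows (2.77% of junctions), with 5.92% of the K562 reads and 7.31% of the HepG2 reads of the group. The 4 sequences here were chosen after their values were seen, to show both lines, and are not the 4 with the most reads. LINC02476 had 216 and 3 reads at a junction of this kind, and LINC02772 had 143 and 0. Capitals mark any ATG, and in each a stop codon follows 1 of them directly, in lower case.
LCMT1-AS1, chr16:25103642-25111395, minus strand: ccagaagcaacATGtagatctaATGacctt
LINC01029, chr18:77989915-77990092, minus strand: tcATGtaaacataagagcctgattaatttt
CALCRL-AS1, chr2:187546840-187547077, plus strand: tctATGtaactcttggcaaatacattggag
LINC01426, chr21:34746017-34782124, plus strand: cggggaccgtctctgccgccATGtaggaag
The LCMT1-AS1 junction had 152 K562 reads and 11 HepG2 reads, which are all reads of that gene. The LINC01029 junction had 146 and 0. The CALCRL-AS1 junction had 9 and 79 and the LINC01426 junction 1 and 41. The junction of NPSR1-AS1 printed earlier, with 0 and 62 reads, also has a start and stop of this kind.

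Several loci on different chromosomes shared the end of an exon. The last 15 bases before the splice read cagccATGtggaact, or this with up to 3 mismatches, at 24 junctions in 15 of the 172 genes, and 20 junctions in 12 genes had reads. The search was for this sequence on the transcribed strand at the exon end only, and the sequence was chosen after the values were seen. Of all annotated junctions of single genes, 0.109% hold it. The windows of 6 genes show the shared exon end joined to a different downstream exon each time.
LINC01694, chr21:45593709-45596390, plus strand: cagccATGtggaactgcaatactttaaaga
LINC00520, chr14:55793457-55796602, minus strand: cagccATGtggaactggaagctgtttttcc
B3GALT1-AS1, chr2:167900783-167941108, minus strand: cagccATGtggaactgtcctctcagatcta
LINC01169, chr15:66582249-66664361, plus strand: cagccATGtggaactgtggggtctccctat
LINC00958, chr11:12981000-12989455, minus strand: cagccATGcggaacgctgtagaccaagacc
LINC02476, chr7:119800875-119907292, minus strand: cagccATGtcaaactcaaaATGtgactgaa

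Junctions with this exon end had 1404 K562 reads and 15 HepG2 reads, so that 98.9% (98.3 to 99.4) of their reads came from K562. They made up 10.9% of all K562 reads of the group. With an exact match the counts were 634 and 6. LINC00958 had 357 and 6 reads at such junctions, LINC00520 247 and 0, LINC02476 223 and 3, LINC01694 193 and 3, LINC01029 149 and 0, and B3GALT1-AS1 145 and 0. Of the 12 genes, 9 are LINC genes, 11 were higher in K562 and none was higher in HepG2. The exception was LINC01515, with 2 and 0 reads at the shared exon end and 51 and 16 in all. These calls use all reads of a gene, those at the shared exon end included. As a base, 40.7% of the 172 passed the rule toward K562, and the group had 12822 K562 reads against 4559. The sequence searched for is identical to that of the LINC01694 junction, whose 193 and 3 reads are among those counted. An enrichment beyond this base was not tested.

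**Figure D5:**
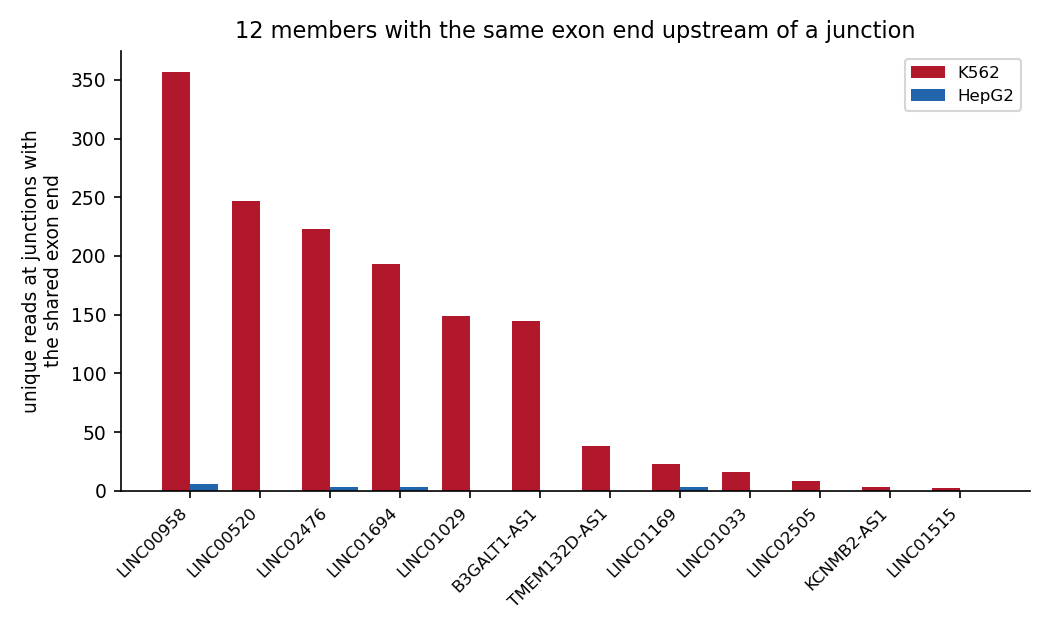
Unique reads in K562 (red) and HepG2 (blue) at junctions that follow the shared exon end, with up to 3 mismatches, in each of the 12 genes with such reads, in order of K562 reads. LINC00958 leads with 357 and 6, and no gene has more than 6 in HepG2.

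The same exon end occurred in genes outside the group. These were not all of other kinds, because named genes below the minimum of reads are among them. Examples are LINC00639, with 17 K562 reads and 0 HepG2 reads at this exon end, and AFAP1-AS1, with 7 and 0. At 349 junctions of 274 further genes, the counts were 1983 in K562 and 80 in HepG2, and 96.1% of the reads came from K562. Only 69 of these genes had reads there, and some had 1 read in all, as CCBE1 did. By raw counts, without the 2-fold rule, K562 had more reads in 58 of them and HepG2 in 9. The most were in TSSC2, a pseudogene, with 602 and 0, in OR51B5, an olfactory receptor gene next to the beta-globin locus, with 558 and 0, and in PRDM9, which sets sites of meiotic recombination, with 194 and 0. HBE1, the embryonic globin gene of that locus, had 38 and 0. No annotation of repeats was used here, and what these exons have in common beyond their sequence was not tested.

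Use of alternative junctions was compared at splice sites with 20 or more reads in each line, which held 72 junctions of 24 of the genes. A junction was counted when its share of the reads at the site differed by 20 or more percentage points and the intervals did not overlap, as in 4.71% of all junctions tested. Of the 72, 3 junctions in 2 genes were counted. In DLGAP1-AS1 the junction chr18:3594485-3597175 took 82 of 103 K562 reads at its donor (79.6%, 70.5 to 86.9) and 9 of 22 HepG2 reads (40.9%, 20.7 to 63.6). The complementary junction to chr18:3596578 from the same donor took the other 21 and 13 reads. In PSMA3-AS1, opposite a proteasome subunit gene, the junction chr14:58274136-58291634 took 82 of 96 K562 reads (85.4%, 76.7 to 91.8) and 32 of 67 HepG2 reads (47.8%, 35.4 to 60.3). With a 99% interval 1 junction was counted.

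Of the regions with known differences in copy number between these lines, chromosome 20 and 9p21 alone were examined. On chromosome 20, which is known to be gained in HepG2, 4 genes were measured, and 3 were higher in HepG2 and 0 in K562. They were LINC00261, LINC01273 and HNF4A-AS1, while ZNF337-AS1 had 29 and 19 reads. Over all 10956 genes, 21.9% were higher in HepG2 and 16.8% in K562. No share over all genes of chromosome 20 is given here, and an effect of copy number was not tested. On chromosome 9p21, where K562 is known to carry a deletion, CDKN2B-AS1 and LINC01239 had 0 reads in both lines and could not be compared.

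The annotation of the group was not uniform. GENCODE 29 lists 75 of the genes as antisense, 59 as lincRNA, 31 as processed transcript and 5 as pseudogenes of some type, and 52 carry another name there. KRT10-AS1, with 70 and 51 reads, is the coding gene TMEM99 in that release. RefSeq lists 170 as lncRNA and 1 as antisense RNA, and 1 has no record. Mapping was mostly unique, with a median of 97.6% of a gene's mapped reads, but NUTM2A-AS1 had 26 and 15 unique reads of 181 and 91, and NUTM2B-AS1 had 26 and 8 of 399 and 90, so their values are uncertain. None (0) of the junctions of the group was also annotated on the opposite strand.

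Long noncoding genes outside this naming give a comparison. Of 40 such genes listed, 10 had 20 or more reads, 7 were higher in K562 and 0 in HepG2, and the median log2 ratio was 1.90. DLEU1, from a region often deleted in leukemia, had 502 and 155 reads, and DANCR, a snoRNA host, had 139 and 37. Of 15 listed genes that encode small proteins, some of them once named as noncoding, 6 were measured. Of these, 2 were higher in K562, 1 in HepG2 and 3 in neither. CYREN had 713 and 155 reads and SMIM30 348 and 47, while SMIM26 had 195 and 527 and was higher in HepG2.

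At the threshold, LINC00534 had 20 and 0 reads and PITPNA-AS1 14 and 6, and FGD5-AS1 and STAG2-AS1 had 5 and 16 and 18 and 3. Just outside it, 10 named genes had 18 or 19 reads, among them LINC00847 with 19 and 0 and LINC00870 with 0 and 18.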

How the data were processed

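The authors deposited raw counts of reads at annotated splice junctions, with 1 column of all mapped reads and 1 of uniquely mapped reads per cell line, per the file headers. Both samples of a line share a table, per the labels. The submitters' processing notes name cutadapt, Bowtie2 and STAR 2.6.0 and the build GRCh38 without roles, while the annotation release is not given in the sources used here, nor is the counting program. Signal tracks were not used here.

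Per gene, unique reads were added up over junctions annotated to it alone, which left out 6033 of the 350863 junctions in each table. Symbols were found for 34580 of 35189 gene identifiers. Genes needed 20 reads in the joined tables, and TMM factors (edgeR 4.0.16) set the depths. The ratio of K562 to HepG2 has an exact conditional binomial (Clopper-Pearson) interval at 95%, and a gene was counted when the whole interval lay past 2-fold. The reads carry no molecular identifiers and so are not independent molecules, and the intervals cover counting error only. With pooled tables there is no test across samples and no p-value. A count of 0 was set to 3 for log2 ratios and medians, while "at least" gives the bound of the exact interval.

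Junctions were matched to GENCODE 29 transcripts. A junction lay in a reading frame when an ATG upstream and the next stop codon in phase enclosed it. The gene and junction rules were run on simulated counts that had counting error alone. That run cannot show how the rules handle duplicate reads or differences between cultures. Named genes are the 12 with the most reads, 8 at each end of the ranking, 6 pairs with the largest and 6 with the smallest differences among those with 50 or more reads in each gene, every junction counted, among genes with 50 or more reads the 8 with the longest frames at the main junction and the 8 most read without a frame of 30 codons there, those on chromosomes 20 and 9p21, those with under 50% unique reads, those at the threshold, and up to 6 of each list. Other names were chosen after their values were seen. The members, lists and rules were chosen with earlier results of these data known. Some listed genes are not reported here. Alternatives were total-read scaling, DESeq2 1.42.0 size factors, all mapped reads, other minimums, 99% intervals, shared junctions counted, the main junction left out, and other frame lengths. Those for the ATG windows and the shared exon end were added after seeing the data.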

Additional observations from a re-analysis of the deposited data

Results flagged for a closer look

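Reads outside the main comparison were found for genes that it left out or counted in part. Multi-mapped reads, which the unique column does not hold, numbered 109 for LINC02802 (40 in K562 and 69 in HepG2), which had 0 unique reads in either line. LINC01881 had 74 (54 and 20), LINC01666 had 69 (69 and 0), LINC01347 had 42 (34 and 8), EMC3-AS1 had 38 (18 and 20), NRSN2-AS1 had 23 (14 and 9) and LINC02754 had 20 (19 and 1). All 7 fell short of 20 unique reads, and reads of this kind can stand at several junctions at once. Junctions annotated to more than 1 gene held further unique reads. A junction that RBM33-DT shares with the gene ENSG00000283128 had 215 reads (162 and 53), and one that PSMA3-AS1 shares with ARMH4 had 151 (91 and 60). Over all 6 junctions that the 172 genes share with another gene, K562 had 280 reads and HepG2 135.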

How the results depend on the processing

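The counts of 70 genes higher in K562 and 23 higher in HepG2 were 83 and 23 with total-read scaling, which moved the median log2 ratio of all genes from -0.01 to 0.41, and 70 and 24 with DESeq2 size factors or all mapped reads. They were 65 and 23 with 99% intervals, 32 and 5 of 47 genes with a minimum of 100 reads, 96 and 40 of 924 with a minimum of 1 read, and 31 and 8 of the 66 that kept 20 reads without their most-read junction. No gene changed from one direction to the other among those tested in both, but 7 calls were lost without the most-read junction, and TTC28-AS1 then had a log2 ratio of -0.52. The median of 1.41 was 1.83 with total-read scaling, 2.41 with the minimum of 100, 0.37 with the minimum of 1 and 1.67 without the most-read junction. Pairs in opposite directions numbered 2, and 1, 0, 5 and 0 under those same alternatives. The median of 0.37 depends on the floor of 3 reads, which can exceed all reads of a gene with few.

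The share of gene reads in K562, 0.178%, was 0.142% with all mapped reads, 0.130% and 0.204% with minimums of 100 and 1, 0.169% with shared junctions counted and 0.0706% without the most-read junction. In HepG2, 0.0475% became 0.0430%, 0.0264%, 0.0599%, 0.0458% and 0.0163%. Reads inside frames, 42.3% in K562 and 40.5% in HepG2, were 62.5% and 63.2% for 10 or more codons and 17.5% and 17.9% for 60 or more, and in K562 41.0% with all mapped reads and 37.9% without LINC01610. Reads at junctions with an ATG in the window were 66.7% in K562 and 58.9% in HepG2 without the 10 most-read genes, and 62.7% in K562 without the shared exon end. Junctions with differing shares numbered 5 with a minimum of 10 reads at the site, 7 with all mapped reads and 1 with 99% intervals, against 3. Of 52 genes named by rule, 52 kept their call with DESeq2 size factors and 51 with total-read scaling, but without the most-read junction only 25 of the 31 still tested did: 4 lost it, TTC28-AS1 changed sign and SCOC-AS1 gained one.

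No paired analysis was possible because each table pools the samples of a line, and for that reason leaving out samples was not run. With a median of 53.0 reads per gene, many ratios have wide intervals.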
